A study of Homo sapiens with 12 samples.

Results

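Translesion synthesis genes were examined in A549 cells, a human lung adenocarcinoma line. The members were 10 genes picked by symbol from the gene count tables: POLH, POLK, POLI, REV1, REV3L, MAD2L2, RAD18, UBE2A, UBE2B and USP1. All 10 were found among the 26334 genes listed, and all 10 were among the 15352 genes that passed the filter on low counts. Cells of every group had been infected with a lentivirus and selected with 1 µg/ml puromycin for 4 days. The virus carried a control shRNA (shControl, "control cells") or an shRNA against RNF113A (shRNF113A, "RNF113A-depleted cells"). Each kind of cell was left untreated or received Cisplatin, a drug that crosslinks DNA bases, at 25 µg/ml for 20 h by the labels (the study's text states its Cisplatin doses in µM, so the unit is uncertain). The 4 conditions had 3 libraries each, which the study calls biological replicates, and whether a single shRNA sequence was used is not given in the labels.

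Translesion synthesis lets replication pass a damaged template base. A stalled fork leads RAD18, an E3 ubiquitin ligase, and its E2 partners UBE2A and UBE2B to attach a single ubiquitin to the sliding clamp PCNA, and USP1 takes that ubiquitin off again. Modified PCNA attracts low-fidelity polymerases of the Y family (POLH, POLK, POLI and REV1), which insert a base across from the lesion, and polymerase zeta, whose catalytic subunit is REV3L and whose HORMA-domain subunit is MAD2L2 (also called REV7), extends from it. Platinum crosslinks are among the lesions that POLH and polymerase zeta are known to bypass.

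The libraries held 33859097 to 56071514 read pairs, of which 26220526 to 45721152 were assigned to genes on the annotated strand. All 6 A549 and epithelial markers checked reached 1 CPM (read pairs per 1000000 assigned pairs), CDKN2A, which A549 cells have lost, had 0 counts in every library, and 1 of 8 markers of other cell types (COL1A1) reached 1 CPM. The 6 A549 and epithelial markers were KRT7, KRT8, KRT18, EPCAM, AKR1B10 and AKR1C1. Their sum averaged 15699 CPM in untreated control cells and 9151 CPM after Cisplatin, and 16035 and 8021 CPM in depleted cells. Single markers moved more with depletion: in untreated cells EPCAM was higher in depleted cells (10.3 against 92.3 CPM, log2 3.16, edgeR adjusted p = 0.000166), and AKR1B10 (log2 -1.63), AKR1C1 (log2 -1.72) and COL1A1 (15.9 against 4.86 CPM, adjusted p = 0.0438) were lower. Their part in the results below was not tested. Levels of single genes are given as CPM after TMM scaling of the libraries. RNF113A itself was at 20.3, 19.5 and 19.8 CPM in untreated control cells and at 15.3, 15.8 and 16.8 CPM in untreated depleted cells, without overlap (log2 fold change -0.31, edgeR adjusted p = 0.0247). After Cisplatin it was at 31.5, 28.9 and 27.7 CPM in control cells and at 25.8, 24.3 and 29.9 CPM in depleted cells, where the ranges overlapped (-0.14, adjusted p = 0.233). The depletion was therefore modest at the RNA level, and under Cisplatin the test did not detect it. The second untreated control library stood apart: it was the lowest of its group for POLH, POLK, REV1, REV3L, RAD18 and USP1 and the highest for POLI, and results that turn on it are given with and without it.

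Cisplatin raised POLH and REV3L and lowered RAD18 and USP1 in control cells. A gene is said to have passed where edgeR's quasi-likelihood test gave a Benjamini-Hochberg adjusted p under 0.05 over all 15352 genes. In control cells 3 of the 10 genes rose and 2 fell with Cisplatin, against 28.0% and 27.0% of all genes. In depleted cells 3 rose and 1 fell, against 32.4% and 27.8% of all genes. The shares of members that passed were thus near those of the whole table. The median log2 fold change of the members was 0.15 in control cells and 0.12 in depleted cells, beside -0.01 and 0.06 over all genes.

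**Figure D1:**
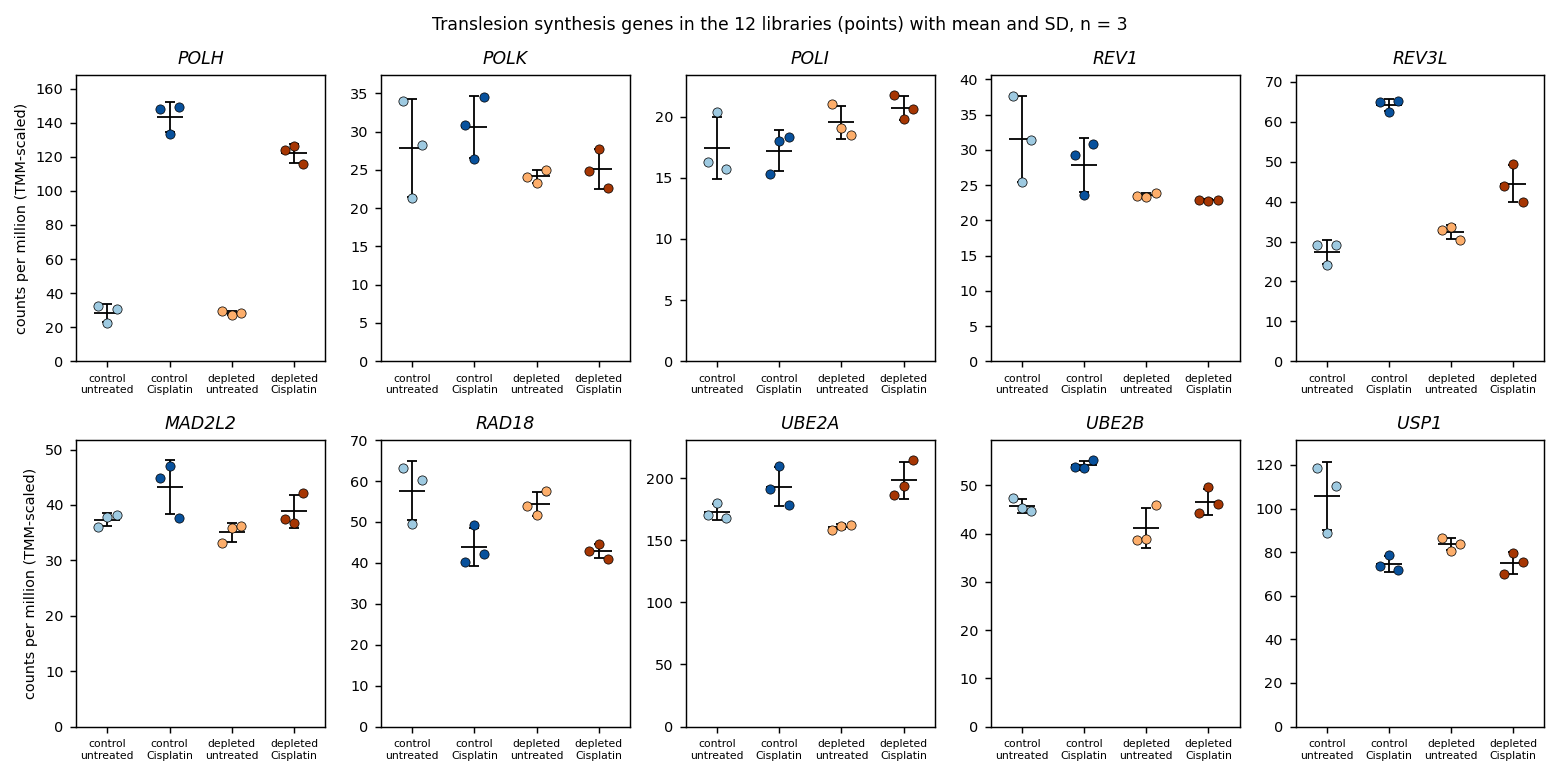
Expression level of each of the 10 genes (y axis, TMM-scaled CPM from 0) in the 4 conditions (x axis), with one point per library and the mean and SD of 3 libraries. POLH sits between 22.4 and 32.4 CPM in the 6 untreated libraries and between 116 and 149 CPM in the 6 Cisplatin libraries, and REV3L is highest in the 3 Cisplatin libraries of control cells.

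POLH encodes polymerase eta, the Y-family enzyme that is lost in the variant form of xeroderma pigmentosum. The gene lies on chromosome 6 of hg19 (chr6:43543887-43586701, plus strand). Untreated control libraries gave 32.4, 22.4 and 30.4 CPM, and Cisplatin-treated control libraries gave 148, 133 and 149 CPM. Untreated depleted libraries gave 29.5, 27.0 and 28.5 CPM, and Cisplatin-treated depleted libraries gave 123.8, 126 and 116 CPM. Every Cisplatin library lay far above every untreated library in both kinds of cell. The rise was 5.05-fold in control cells (log2 2.34, SE 0.12, edgeR adjusted p = 1.49e-08) and 4.31-fold in depleted cells (log2 2.11, SE 0.12, adjusted p = 3.31e-08). Without the second untreated control library the rise in control cells was 2.19 on the log2 scale. Under Cisplatin all 3 depleted libraries were below all 3 control libraries, but the difference did not pass (log2 -0.23, adjusted p = 0.11). It did so when either the second untreated control library (adjusted p = 0.0118) or the second Cisplatin-treated control library (adjusted p = 0.0443) was left out.

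REV3L, the very large catalytic subunit of polymerase zeta, spans 184.7 kb (chr6:111620234-111804918 of hg19, minus strand). Its levels were 29.2, 24 and 29.0 CPM in untreated control cells and 65.0, 62.5 and 65.1 CPM after Cisplatin. In depleted cells they were 33.0, 33.6 and 30.4 CPM without the drug and 44.03, 49.3 and 40.0 CPM with it. The untreated and treated ranges were apart in both kinds of cell, and among treated libraries the depleted ones were all lower than the control ones. Cisplatin raised REV3L 2.34-fold in control cells (log2 1.23, SE 0.10, edgeR adjusted p = 6.53e-07) and 1.37-fold in depleted cells (log2 0.46, SE 0.10, adjusted p = 0.00139). The difference between the 2 Cisplatin effects was itself tested by the interaction term and was -0.77 on the log2 scale (SE 0.14, 95% interval -1.04 to -0.50, edgeR adjusted p = 0.014). REV3L was the only member with such a difference at adjusted p under 0.05, and 4.25% of all genes had one. It was also lower in depleted than in control cells under Cisplatin (log2 -0.53, adjusted p = 0.00109), whereas without the drug it stood at a log2 difference of 0.24 that did not pass (adjusted p = 0.0896). Leaving out each of the 12 libraries in turn kept the interaction between -0.90 and -0.68 with adjusted p up to 0.0452.

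For the remaining 9 genes the interaction did not pass, which does not show that Cisplatin acted alike in both kinds of cell. For POLH the interval of the difference ran from -0.55 to 0.09 (edgeR adjusted p = 0.45). USP1 had an interaction of 0.35 (interval 0.07 to 0.62, adjusted p = 0.176), which became 0.46 with an adjusted p of 0.0194 without the second untreated control library.

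The promoters of the 2 genes that rose most are shown because POLH and REV3L went up together. The sequences are the 250 bases before the transcription start, from RefSeq on GRCh38.p14, of which 9 of the 10 members had an entry with 12 promoters in all. REV3L has 2 entries, of which the one with a match is printed, and the other (chr6:111483712-111483961) held none of the letters searched. Capitals mark a match to TTTCCCGC, letters of the kind that E2F factors bind.
POLH promoter (chr6:43575935-43576184, plus strand): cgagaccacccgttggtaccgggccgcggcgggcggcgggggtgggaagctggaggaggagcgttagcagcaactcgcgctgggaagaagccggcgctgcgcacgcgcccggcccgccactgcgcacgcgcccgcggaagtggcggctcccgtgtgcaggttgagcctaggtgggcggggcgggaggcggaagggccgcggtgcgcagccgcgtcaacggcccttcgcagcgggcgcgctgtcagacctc
REV3L promoter (chr6:111483219-111483468, minus strand): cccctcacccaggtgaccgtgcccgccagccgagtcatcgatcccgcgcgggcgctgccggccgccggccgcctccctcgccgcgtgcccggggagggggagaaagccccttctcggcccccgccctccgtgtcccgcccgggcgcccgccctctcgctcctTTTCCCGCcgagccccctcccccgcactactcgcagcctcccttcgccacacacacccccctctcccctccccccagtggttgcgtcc
The match in REV3L began 88 bases before the start. TTTCCCGC, read on both strands, was in 2 of the 12 member promoters (POLI and REV3L) and in 1.39% of 35116 promoters. TTTGGCGC was in none of the 12 and in 0.55% of all, and CCAAT was in 2 of the 12 (MAD2L2 and USP1) and in 32.0% of all. The member promoters were rich in CpG, with 17 to 42 per 250 bases and a median of 30 against a median of 11 over all promoters. These are descriptions of letters in a window and not of bound sites.

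Of the Y-family members other than POLH, none passed for Cisplatin in either kind of cell. POLK, which extends from mismatched ends (chr5:74807581-74896969 of hg19), averaged 27.9 ± 6.37 CPM in control cells without Cisplatin and 30.6 ± 4.07 CPM with it (SD, n = 3). In depleted cells it averaged 24.2 ± 0.86 and 25.1 ± 2.57 CPM. POLI, which inserts opposite some damaged purines (chr18:51795774-51847636), was the weakest in reads and averaged 17.5 ± 2.54, 17.2 ± 1.68, 19.5 ± 1.35 and 20.7 ± 1.00 CPM in the same order. The ranges of both genes overlapped between treated and untreated libraries in both kinds of cell.

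REV1, a deoxycytidyl transferase that also holds the other polymerases together (chr2:100016938-100106497, minus strand), was the one Y-family gene that fell with depletion of RNF113A in untreated cells. Control libraries gave 37.6, 25.5 and 31.3 CPM and depleted libraries 23.5, 23.3 and 23.9 CPM. The control values were spread widely, and the lowest of them was just above the depleted values. The log2 fold change was -0.42 (SE 0.13, edgeR adjusted p = 0.0339), and -0.55 without the second untreated control library (adjusted p = 0.00322). Leaving out the first gave -0.27 and an adjusted p of 0.141, and the call was lost in 5 of the 12 fits that left out 1 library. Under Cisplatin the control mean was 27.9 ± 3.83 CPM and the depleted mean 22.9 ± 0.09 CPM, a log2 difference of -0.28 that did not pass (adjusted p = 0.10). Leaving out the second library of either control group let it pass (adjusted p = 0.036 and 0.0151).

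MAD2L2, the partner of REV3L that other repair complexes also use (chr1:11734537-11751707, minus strand), did not pass for Cisplatin in either kind of cell. It averaged 37.3 ± 1.18 and 43.2 ± 4.87 CPM in control cells without and with Cisplatin, and 35.0 ± 1.72 and 38.8 ± 2.95 CPM in depleted cells (SD, n = 3). The Cisplatin log2 fold changes were 0.21 (edgeR adjusted p = 0.071) and 0.15 (adjusted p = 0.189). With library size scaling in place of TMM both passed (edgeR adjusted p = 0.016 and 0.0484).

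The genes that set the ubiquitin mark on PCNA moved in opposite directions with Cisplatin. RAD18 spans 188.4 kb (chr3:8817088-9005457, minus strand) and was at 63.1, 49.4 and 60.2 CPM in untreated control cells and at 40.3, 49.2 and 42.2 CPM after Cisplatin. In depleted cells it was at 54.0, 51.7 and 57.6 CPM without and at 42.9, 44.7 and 41.1 CPM with the drug. The treated values were all lower than the untreated ones, although in control cells the gap between the 2 second replicates was only 0.2 CPM wide. RAD18 fell by 0.39 on the log2 scale in control cells (SE 0.10, edgeR adjusted p = 0.00636) and by 0.34 in depleted cells (SE 0.10, adjusted p = 0.0121). Its differences with depletion did not pass, without the drug (log2 -0.08, adjusted p = 0.587) or with it (log2 -0.03, adjusted p = 0.804).

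UBE2A and UBE2B are close paralogs that encode nearly the same ubiquitin-conjugating enzyme, so reads shared by both would be left uncounted. UBE2A (chrX:118708501-118718381, plus strand) had the most reads of the members, with 173 ± 6.23 and 193 ± 15.5 CPM in control cells without and with Cisplatin and 161 ± 1.96 and 198 ± 15.0 CPM in depleted cells (SD, n = 3). Its rise passed in depleted cells (log2 0.30, SE 0.08, edgeR adjusted p = 0.00462) and not in control cells (log2 0.16, adjusted p = 0.0937), and the difference between them did not pass (0.14, adjusted p = 0.499). UBE2B (chr5:133706870-133727683, plus strand) was at 47.5, 45.3 and 44.7 CPM in untreated and 53.8, 53.5 and 55.2 CPM in treated control cells, and at 38.6, 38.8 and 45.9 CPM in untreated and 44.3, 49.6 and 46.1 CPM in treated depleted cells. It rose in control cells (log2 0.24, SE 0.08, adjusted p = 0.023, and 0.0671 and 0.0526 without the third untreated or the third treated control library), and in depleted cells the log2 change was 0.18 (adjusted p = 0.0693). Under Cisplatin every depleted library was below every control library, a fall of 0.22 on the log2 scale (adjusted p = 0.0477). That call was at the limit: 7 of the 12 fits that left out 1 library lost it, with adjusted p up to 0.116.

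USP1 removes ubiquitin from PCNA together with WDR48 (chr1:62901968-62917475, plus strand). Untreated control libraries held 119, 88.6 and 110 CPM and treated ones 73.6, 78.7 and 71.7 CPM. Untreated depleted libraries held 86.5, 80.7 and 83.9 CPM and treated ones 69.9, 79.6 and 75.4 CPM. Untreated control cells stood highest, untreated depleted cells came next, and both treated groups lay together below. USP1 fell by 0.50 on the log2 scale with Cisplatin in control cells (SE 0.10, edgeR adjusted p = 0.000923), and its change in depleted cells was -0.16 (adjusted p = 0.185). Depletion in untreated cells lowered it by a log2 fold change of -0.34 (SE 0.10, adjusted p = 0.0237), and under Cisplatin the 2 means were 74.7 ± 3.60 and 74.97 ± 4.88 CPM (SD, n = 3). The depletion call was lost in 5 of the 12 fits that left out 1 library, with adjusted p up to 0.0967, and without the second untreated control library it was -0.45 (adjusted p = 0.000797).

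**Figure D2:**
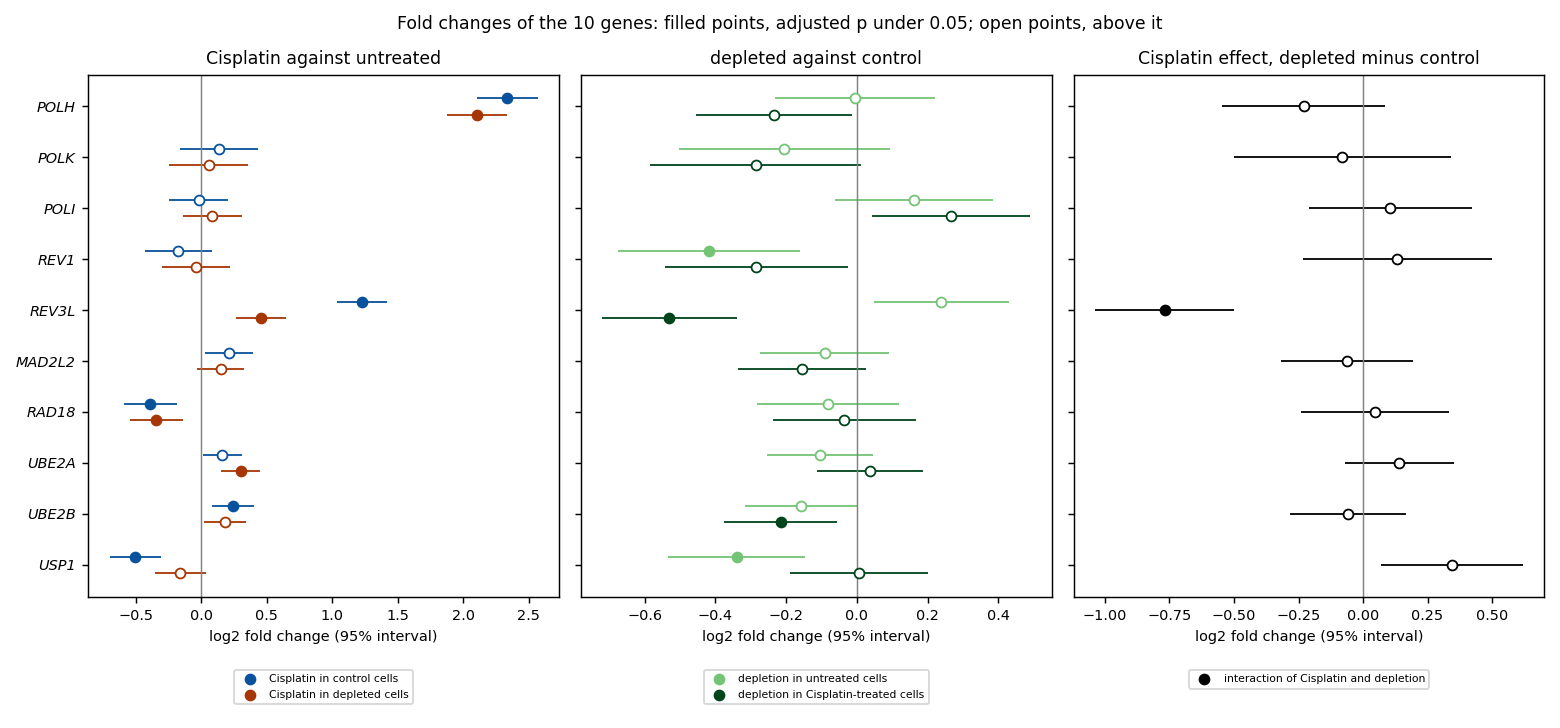
Log2 fold changes of the 10 genes (x axis) with 95% intervals by a normal approximation, which are narrower than the tests would give: Cisplatin against untreated at left, RNF113A-depleted against control cells in the middle, and the difference between the 2 Cisplatin effects at right. Filled points passed (edgeR adjusted p under 0.05). POLH and REV3L lie farthest to the right for Cisplatin, and REV3L alone is filled for the interaction, at -0.77.

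For depletion of RNF113A 2 of the 10 genes passed without the drug and 2 with it. With 1 library left out these counts ran from 0 to 3 and from 1 to 5. A gene without a call may still have moved. REV1 and USP1 fell and none rose in untreated cells, where 12.8% of all genes rose and 14.6% fell. REV3L and UBE2B fell and none rose in Cisplatin-treated cells, where 21.1% rose and 21.8% fell. The median log2 fold changes of the members were -0.10 and -0.19, beside 0.00 and -0.01 over all genes. In an additive model, with 1 Cisplatin and 1 depletion term over all 12 libraries, 5 members rose with Cisplatin (POLH, REV3L, MAD2L2, UBE2A and UBE2B) and 2 fell (RAD18 and USP1), against 34.8% and 32.1% of all genes. The MAD2L2 call (log2 0.18, edgeR adjusted p = 0.0289) was lost with the DESeq2 test (adjusted p = 0.058), with DESeq2 size factors (0.0666) and in 5 of the 12 fits that left out 1 library. With depletion 3 of the 10 changed, against 47.5% of all genes in either direction. POLI rose (log2 0.21, edgeR adjusted p = 0.0468) and REV1 (-0.35, adjusted p = 0.00792) and UBE2B (-0.19, adjusted p = 0.0194) fell. The POLI call was lost in 6 of 7 other settings and in 10 of the 12 fits that left out 1 library.

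Per kilobase of exon, the scale on which genes can be compared, UBE2A was the most abundant member in all 4 conditions, at 58.2 and 65.1 CPM per kb without and with Cisplatin in control cells and 54.2 and 66.8 CPM per kb in depleted cells. POLH was sixth in untreated cells, at 8.03 CPM per kb in control and 8.0 in depleted cells, and second after Cisplatin, at 40.5 and 34.5 CPM per kb. Its exonic reads were 73.3 to 79.7% of the counts used here, against 90 to 101% for the other members. The exon length may therefore be too short for its counts, and its levels per kb may be too high beside the others. REV3L was last in untreated control cells at 2.53 CPM per kb, level with POLI, and reached 5.93 CPM per kb after Cisplatin. In untreated control cells the order was UBE2A, USP1 (24.8), UBE2B (17.7), MAD2L2 (15.4), RAD18 (8.70), POLH, REV1 (6.46), POLK (3.98), POLI and REV3L (both 2.53 CPM per kb). The neighbours RAD18 and POLH, POLH and REV1, and POLI and REV3L overlapped between libraries, and the other neighbours did not. In treated control cells the order was UBE2A, POLH, UBE2B (20.9), MAD2L2 (17.9), USP1 (17.5), RAD18 (6.64), REV3L, REV1 (5.72), POLK (4.37) and POLI (2.496 CPM per kb), where MAD2L2 and USP1, REV3L and REV1, and REV1 and POLK overlapped.

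In untreated depleted cells USP1 was second at 19.6 CPM per kb, followed by UBE2B (15.9), MAD2L2 (14.5), RAD18 (8.22), POLH, REV1 (4.84), POLK (3.45), REV3L (2.99) and POLI (2.83 CPM per kb). UBE2B and MAD2L2, RAD18 and POLH, and REV3L and POLI overlapped there. In treated depleted cells UBE2B (18.0), USP1 (17.6) and MAD2L2 (16.1) came after POLH, with overlap from each to the next, and then RAD18 (6.48), REV1 (4.70), REV3L (4.10), POLK (3.59) and POLI (3.01 CPM per kb), where REV3L and POLK overlapped. The means of POLK, POLI, REV1 and REV3L were below those of the ubiquitin enzymes UBE2A, UBE2B and USP1 in all 4 conditions.

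**Figure D3:**
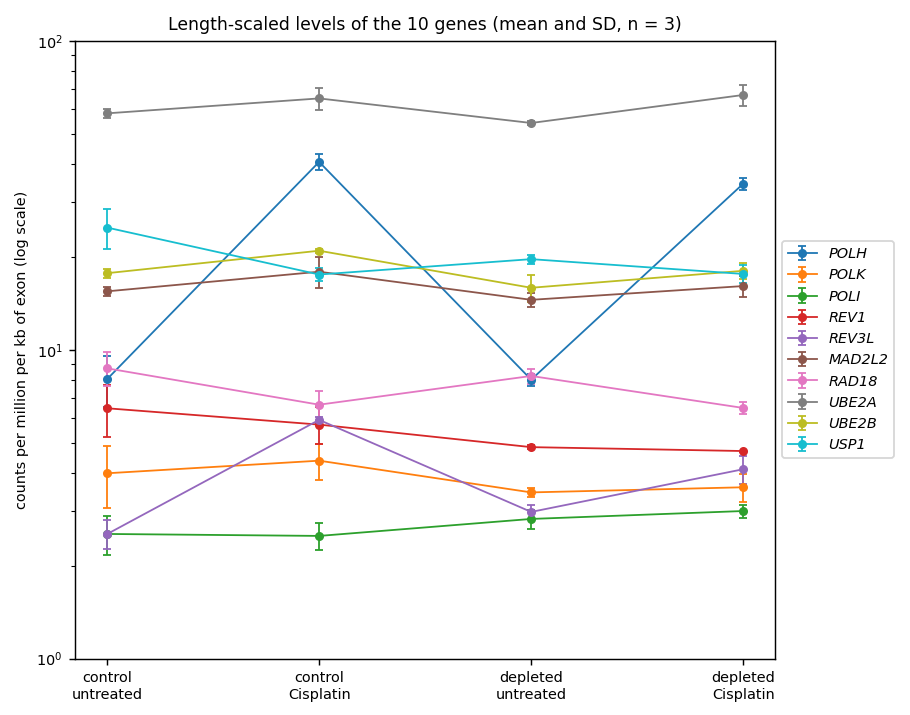
Length-scaled level of each gene (y axis, log scale, CPM per kb of exon) in the 4 conditions (x axis), as mean and SD of 3 libraries. POLH climbs from 8.03 to 40.5 in control cells and from 8.0 to 34.5 in depleted cells, past every member but UBE2A.

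The 3 genes whose log2 CPM followed POLH most closely over the 12 libraries, among the 9778 genes whose mean level reached 10 CPM, were E2F7 (Pearson r = 0.997), DNAJC21 (0.996) and SESN2 (0.995). For REV3L they were ZNF770 (0.984), CHD2 (0.980) and NRAV (0.978), and for RAD18 VAPB (0.983), AURKB (0.961) and METTL4 (0.959). These values describe 12 libraries that share 4 conditions. E2F7 and SESN2 are known p53 targets. A list of 8 other p53 targets rose in full with Cisplatin in both kinds of cell (median log2 fold change 2.85 and 2.09), where 28.0% and 32.4% of all genes rose. Under the drug 6 of the 8 were lower in depleted than in control cells (median -0.66), beside 21.8% of all genes. For 4 of the 8 (CDKN1A, MDM2, RRM2B and DDB2) the interaction passed, all in the direction of REV3L, beside 4.25% of all genes in either direction. A list of 10 S-phase genes had 7 that fell and none that rose in control cells (median log2 fold change -0.80), beside 27.0% and 28.0% of all genes. In depleted cells 8 fell and 1 rose (median -0.68), beside 27.8% and 32.4%. The part of the p53 response and of the share of cells in S phase in the changes of POLH, REV3L, RAD18 and USP1 was not tested, and in bulk RNA fewer cells of a kind and less RNA per cell cannot be told apart.

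Gene length was set beside the changes of the members. Over 13434 protein-coding genes the log2 change with Cisplatin in control cells went with the log10 of the gene span at Pearson r = -0.37, and the 2700 genes of at least 100 kb had a median of -0.58, whereas over the 10 members r was 0.12. The 2 members of that size went opposite ways: REV3L rose by 1.23 and RAD18 fell by 0.39 on the log2 scale. In the comparison of depleted with control cells under Cisplatin the long genes had a median of -0.32, RAD18 was at -0.03 and REV3L at -0.53. For the interaction the long genes had a median of -0.22, beside -0.77 for REV3L and 0.05 for RAD18. Over the 10 members r was -0.43 for depletion under Cisplatin and -0.50 for the interaction, beside -0.28 and -0.24 over all protein-coding genes. It was -0.08 for Cisplatin in depleted cells and 0.28 for depletion in untreated cells, beside -0.47 and -0.12.

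Further genes of the pathway were counted in the same way. Of 41 further genes in 7 lists, all tested, 6 rose and 21 fell in control cells (median log2 fold change -0.25), beside 28.0% and 27.0% of all genes, and 8 rose and 22 fell in depleted cells (median -0.31), beside 32.4% and 27.8%. With depletion 4 rose and 4 fell in untreated cells (median -0.10), beside 12.8% and 14.6% of all genes. In treated cells 3 rose and 15 fell (median -0.16), beside 21.1% and 21.8%. None of the 41 passed the interaction, where 4.25% of all genes did. PCNA itself, the clamp on which the pathway turns, rose from 730 ± 146 to 1127 ± 191 CPM in control cells (edgeR adjusted p = 0.00197) and from 585 ± 27.6 to 803 ± 18.4 CPM in depleted cells (adjusted p = 0.012). Of the 7 clamp and clamp-loader genes 4 fell in each kind of cell. Of 5 genes for PCNA polyubiquitination and template switching, the error-free route past a lesion, 4 fell and 1 rose in control cells and 3 fell in depleted cells. Of 6 subunits of the replicative polymerases delta and epsilon 4 fell in each. WDR48 and USP7, listed for PCNA deubiquitination, did not pass in control cells, and 1 of them rose in depleted cells. Of 6 other damage-tolerant or repair polymerases 3 rose and 2 fell in each kind of cell. Of 11 recruitment and removal factors 1 rose and 5 fell in control cells and 2 rose and 7 fell in depleted cells, and of 4 further REV7 partners 2 fell in each.

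ZRANB3, a translocase that remodels stalled forks, fell most with Cisplatin, from 12.5 ± 1.25 to 3.00 ± 0.21 CPM in control cells (log2 -2.06, edgeR adjusted p = 1.68e-07) and from 12.01 ± 1.23 to 1.67 ± 0.25 CPM in depleted cells (log2 -2.84, adjusted p = 2.28e-08). SHLD1, a shieldin subunit that works with MAD2L2, was next, where the mean level had to reach 1 CPM, at -1.16 and -1.44. POLN, at 1.44 CPM in untreated control cells, was under that limit and changed by -1.61 in control cells. The highest rises were those of SPRTN, a protease for DNA-protein crosslinks, and POLL, a gap-filling polymerase, in control cells (log2 0.94 and 0.86), and of RNF8, a ubiquitin ligase, and SPRTN in depleted cells (0.61 and 0.55). With depletion RFC3 (-0.62) and HLTF (-0.32) fell and POLM (0.47) and POLE (0.46) rose most in untreated cells. Under Cisplatin DTL (-0.87) and ZRANB3 (-0.84) fell and POLM (0.72) and POLE (0.31) rose most.

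Intronic reads of the members were compared next, since RNF113A is a subunit of the spliceosome. They were taken as reads over the gene span minus reads within exons, and the ratio of intronic to exonic reads was tested in edgeR with a term for each library. The median intronic share over 11488 genes was 6.16 ± 0.47% without and 7.63 ± 1.88% with Cisplatin in control cells, and 8.39 ± 0.51% without and 14.1 ± 0.48% with it in depleted cells (SD, n = 3). All 10 members had their highest mean intronic share in treated depleted cells. UBE2B stood out among them, with 6.80, 5.62 and 6.75% in control cells without Cisplatin and 9.97, 10.3 and 11.1% with it. In depleted cells it had 8.87, 8.45 and 7.25% without and 20.0, 20.1 and 23.5% with the drug. The 4 ranges did not overlap, and the last was more than 8 points above the rest. The ratio for UBE2B rose with Cisplatin by a log2 change of 0.78 in control cells (SE 0.19, adjusted p = 0.00483) and of 1.59 in depleted cells (SE 0.19, adjusted p = 3.47e-07). It was higher in depleted than in control cells under the drug (log2 1.20, SE 0.18, adjusted p = 1.18e-05). The interaction of 0.81 did not pass (adjusted p = 0.0749).

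The mean intronic share of UBE2A went from 3.70 to 5.66% with Cisplatin in control cells and from 5.403 to 9.48% in depleted cells. That of REV3L went from 4.42 to 5.35% and from 6.05 to 10.4%, and that of RAD18 from 4.33 to 6.004% and from 6.12 to 10.6%. USP1 went from 3.35 to 3.97% and from 4.47 to 6.04%, and MAD2L2 stayed lowest, at 1.32 and 1.63% in control and 1.89 and 2.31% in depleted cells. The shares of POLK were 8.50 and 7.24% in control and 10.7 and 14.7% in depleted cells, those of REV1 13.8 and 17.4% and 16.2 and 24.2%, and those of POLI 21.8 and 22.1% and 24.02 and 31.2%. POLH had the highest shares, 25.2 and 29.2% in control and 26.9 and 34.7% in depleted cells. In the annotation behind these counts its last exon ends at position 43583397 of chromosome 6 and its gene span at 43586701. In Gencode v44 the last exon ends 4863 bases farther than in that annotation. Reads between the earlier exon end and the end of the span would count as intronic for POLH, and how many there were was not measured. In the same vein its exonic reads were 73.3 to 79.7% of its gene counts, against 90 to 101% for the others.

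The counts of members were read against the rise over all genes. With Cisplatin the ratio rose in 2 of 10 members in control cells (UBE2A and UBE2B), against 17.5% of all genes, and in 9 of 10 in depleted cells (all but MAD2L2), against 64.6%. The UBE2A call in control cells was lost in 11 of the 12 fits that left out 1 library (adjusted p up to 0.181). Without the second treated control library 5 of 10 rose in control cells, beside 40.7% of all genes in that fit. Without the first or the third untreated depleted library 5 of 10 rose in depleted cells, beside 55.7% and 54.1% of all genes. With depletion it rose in 1 of 10 in untreated cells (UBE2A, log2 0.57, edgeR adjusted p = 0.0452, and up to 0.177 with 1 library left out), against 28.2%, and in 8 of 10 in treated cells (all but POLH and MAD2L2), against 81.5%. None of the 10 passed the interaction, against 3.53% of all genes. Without the third treated control library 4 passed (POLK, POLI, UBE2A and UBE2B), beside 45.9% of all genes, and over the fits that left out 1 library the number of all genes that passed ran from 27 to 5277. With all libraries POLK and UBE2B were the only members with an unadjusted p under 0.05 there. So did 3060 of all 11488 genes, which means that this does not set the members apart. When each column was scaled to its own total, which sets aside the rise shared by all genes, UBE2B still rose with Cisplatin in control (log2 0.46) and depleted cells (0.81). Its difference of depleted from control cells under the drug was then 0.30 and did not pass (adjusted p = 0.102), and its interaction was 0.35. On the same scale POLK fell in control cells (-0.56, adjusted p = 0.0286) and POLH fell with depletion in treated cells (-0.54, adjusted p = 0.000359). No other member passed on that scale.

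**Figure D4:**
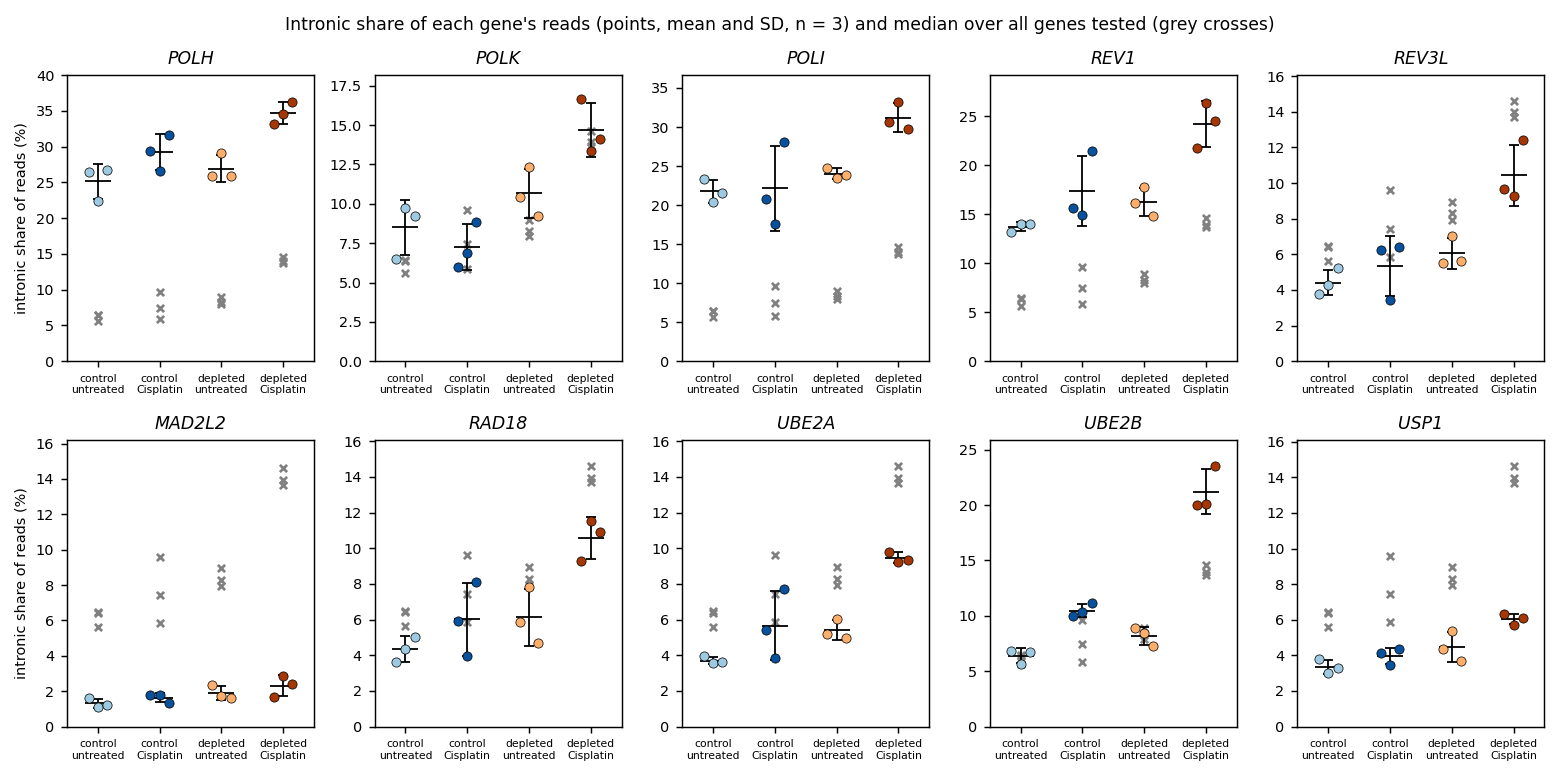
Intronic share of the reads of each gene (y axis, percent from 0) in the 4 conditions (x axis), with one point per library and the mean and SD of 3 libraries, beside the median over 11488 genes. UBE2B lies between 20.0 and 23.5% in the 3 treated depleted libraries and at or below 11.1% in the other 9.

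Exon use of the members was compared last. Splicing events were tested on the inclusion and skipping reads in the rMATS tables, where a call needed an edgeR adjusted p under 0.05 and 20 points between mean inclusion levels. Of 460 edgeR tests on member events, over Cisplatin in each kind of cell and depletion with and without the drug, 0 were called. Of all events 0.0681% were called for Cisplatin in control and 0.283% in depleted cells. For depletion 0.0580% were called without the drug and 0.172% with it. By the adjusted p alone 2 of the 460 passed, 1 for Cisplatin in depleted cells, against 2.61% of all events, and 1 for depletion in treated cells, against 2.32%. For Cisplatin in control cells and depletion in untreated cells 0 member events passed, against 0.529% and 0.906% of all events. An unadjusted edgeR p under 0.05 was found in 27 of the 460, a count that was not set beside all events and is not read as a result. The event that passed for Cisplatin in depleted cells was a 90-base exon of UBE2A (chrX:118715470-118715559 of hg19), which is 30 codons long, is coding in 7 transcripts of Gencode v44 and keeps the reading frame when skipped. The corresponding exon of UBE2B (chr5:133716410-133716499), added after its values were seen, is of the same length. Both are printed with 20 bases of intron on each side, with the exon in capitals, because 75 of their 90 bases are identical (83.3%) and yet their inclusion differed.
UBE2A exon (chrX:118715450-118715579, plus strand): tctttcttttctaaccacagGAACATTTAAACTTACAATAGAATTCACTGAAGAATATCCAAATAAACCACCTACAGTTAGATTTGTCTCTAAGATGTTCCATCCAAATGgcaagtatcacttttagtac
UBE2B exon (chr5:133716390-133716519, plus strand): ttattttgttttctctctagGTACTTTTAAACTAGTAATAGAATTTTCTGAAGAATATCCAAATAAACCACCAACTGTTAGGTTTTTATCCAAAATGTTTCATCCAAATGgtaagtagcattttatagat
The intron after the UBE2A exon opens with gc and the one after the UBE2B exon with gt. Of 65695 skipped exons in the tables, 1.42% were followed by GC and 98.5% by GT.

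In control cells the UBE2A exon was included at 84.8, 82.8 and 84.1% without Cisplatin and at 71.0, 72.8 and 75.4% with it. In depleted cells it was included at 79.2, 80.2 and 79.3% without the drug and at 61.4, 64.0 and 54.4% with it. The 4 ranges did not overlap, and inclusion was lower with Cisplatin in both kinds of cell and lower in depleted cells with and without the drug. Each library had 848 to 1537 inclusion and 103 to 316 skipping reads for it. In depleted cells Cisplatin lowered inclusion from 79.6 ± 0.56 to 59.9 ± 4.99% (SD, n = 3), a difference of -19.6 points (edgeR adjusted p = 5.49e-06) that fell short of the 20-point limit. In control cells the means were 83.9 ± 1.05 and 73.1 ± 2.19%, a difference of -10.8 points whose adjusted p was 0.205. Depletion gave -4.32 points in untreated cells (adjusted p = 0.699) and -13.1 points in treated cells (adjusted p = 0.205). The UBE2B exon was included at 97.5 to 100% in all 12 libraries, with adjusted p between 0.709 and 0.968 in the 4 comparisons.

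**Figure D5:**
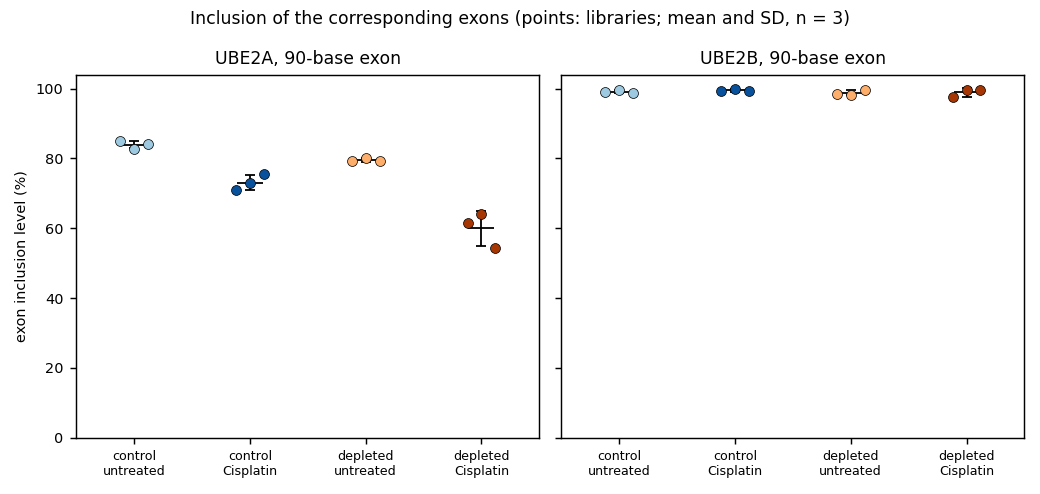
Inclusion level (y axis, percent from 0) of the 90-base exon of UBE2A at left and of the corresponding exon of UBE2B at right in the 4 conditions (x axis), with one point per library and the mean and SD of 3 libraries. The UBE2A exon goes from 83.9% in untreated control cells to 59.9% in treated depleted cells, while the UBE2B exon stays at 97.5% or above.

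The event that passed for depletion in treated cells was in UBE2B and set a 26-base exon (chr5:133712360-133712385 of hg19) against the same 90-base exon. The share of the first form was 33.0, 32.9 and 36.4% in control and 47.6, 43.3 and 40.7% in depleted cells, without overlap, a difference of 9.77 points (edgeR adjusted p = 0.00576). All 3 transcripts of Gencode v44 in which either exon is coding hold both, so none of these has the mutually exclusive form. Noncoding transcripts and the annotation behind the events were not searched. As a skipped exon the 90-base exon had an inclusion level above 97% in every library. No other member had an event at an adjusted p under 0.05 in any of the 4 comparisons.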

How the data were processed

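RNA of 12 libraries of A549 cells, 3 in each of 4 conditions, was made into stranded libraries from poly(A) RNA and sequenced in paired ends. The authors aligned the reads to hg19 with STAR 2.5.2b and deposited its raw read-pair counts per gene, together with HTSeq read counts per gene over exons and over whole gene spans of protein-coding Gencode genes. The rMATS tables, as deposited, hold inclusion and skipping reads per splicing event for 3 libraries of a condition without naming them. The fold, p and FDR columns of those tables are comparisons made by the authors and were not used, nor was the merged annotation.

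Counts on the strand of the gene (column 4) were filtered with filterByExpr, scaled by TMM and tested with edgeR 4.0.16 (R 4.3.3), with 1 mean per condition over all 12 libraries or, for effects over all cells, 1 Cisplatin and 1 depletion term. Of the read pairs 77.4 to 86.0% counted for a gene on the annotated strand, and the remainder was left out. Levels per kb used exon lengths of Gencode v19, and log2 CPM used a prior count of 2. Intervals are 95% by a normal approximation, which with few libraries makes them narrower than the tests would. An interval can therefore leave out 0 where the test did not pass. For POLH with depletion under Cisplatin it ran from -0.45 to -0.01, with an unadjusted edgeR p of 0.0588. Intronic reads were gene-span reads minus exonic reads, and genes with at least 1 of each in every library were tested with a term for each library. Splicing events needed 10 reads in every library. The expression, intronic and splicing tests were also run on simulated data, for splicing on retained introns only. With 3 libraries a condition, small changes can be missed.

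The members and gene lists were chosen with earlier results of these data known. Named genes were the members, RNF113A and, from the pathway lists, the 2 strongest rises and falls per comparison among genes that passed at 1 CPM or more. The 3 genes most like POLH, REV3L or RAD18 were taken at a mean of 10 CPM or more. The UBE2B exon and the letters searched in promoters were chosen after values were seen.

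Alternatives were DESeq2 1.42.0, other scalings and filters, unstranded counts, the 2 conditions alone, the replicate number as a block and each library left out. Replicate numbers were checked for pairing over 9779 genes. Deviations from the condition means correlated at 0.63, 0.73 and 0.48 between untreated and treated control libraries of the same number. Libraries 1 and 3 correlated across numbers as well (0.59 and 0.53), and only library 2 was set apart. The main tests took no account of pairing, which entered only in the fits with a block. In depleted cells the values were 0.41, -0.06 and 0.30. A blocked fit of the control libraries alone was added after seeing the data.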

Additional observations from a re-analysis of the deposited data

Results flagged for a closer look

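REV3L was the one member whose Cisplatin effect differed between depleted and control cells by a test of the difference itself. The effect in depleted minus that in control cells was -0.77 on the log2 scale (edgeR interaction term, adjusted p = 0.014), with a rise of 1.23 in control and of 0.46 in depleted cells. Such a difference was found in 4.25% of all genes.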

How the results depend on the processing

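With Cisplatin 5 members changed in control cells, 4 in depleted cells and 7 over all cells, and these counts stayed within 1.5 times under every alternative run (4 to 6, 4 to 5 and 6 to 7 when 1 library was left out). Counts for depletion were less stable. In untreated cells 2 members changed, against 1 with unstranded counts, 0 with only the 2 conditions compared and 0 to 3 when 1 library was left out: 0 without the first or the third untreated control or the first or second untreated depleted library, and 3 without the second untreated control library. In Cisplatin-treated cells 2 changed, against 1 with library size scaling, with at least 10 counts in every library, with no filter and with the replicate block, and 1 to 5 when 1 library was left out (5 without the second untreated or the second treated control library, when 50.2% and 42.0% of all genes passed). The interaction gave 1 (1 to 2) and depletion over all cells 3 (2 to 5), the higher counts without the second untreated control library. The UBE2B call under Cisplatin was the one lost in those 4 settings, with adjusted p between 0.0509 and 0.0663, and the POLI call over all cells was lost under the block (adjusted p = 0.0588). No other expression call of a member changed under the replicate block. The block on the control libraries alone changed no call for Cisplatin in control cells (5 members, and 2 for the intronic ratio). Of 1380 alternative values for single members and comparisons, 1304 stayed on the same side of the threshold, 49 lost a call, 27 gained one and 0 reversed a called direction. Library size scaling moved the median of all genes by up to 0.10 on the log2 scale. With it MAD2L2 and UBE2A also passed for Cisplatin in control cells (edgeR adjusted p = 0.016 and 0.0185). In depleted cells MAD2L2 and UBE2B did so (edgeR adjusted p = 0.0484 and 0.011).

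For the intronic to exonic ratio, the count for Cisplatin in control cells was 2 and went from 1 to 5 when 1 library was left out (5 without the second treated control library, when 40.7% of all genes rose). In depleted cells it was 9, against 5 of 6 testable members among genes that overlap no other gene, where fewer genes were tested, 1 with each column scaled to its total, and 5 to 9 with 1 library left out. For depletion in untreated cells it was 1, against 0 with column scaling and 0 to 3 with 1 library left out (3 without the second or the third treated control library, when 45.3% and 46.4% of all genes passed). For depletion in treated cells it was 8, against 5 of 6 among genes without overlap and 1 with column scaling. The 8 were rises, whereas that 1 was a fall of POLH (edgeR adjusted p = 0.000359). For Cisplatin in control cells, column scaling kept the rise of UBE2B and lost that of UBE2A (edgeR adjusted p = 0.0697). POLK passed there as a fall (-0.56). The interaction count was 0, and 0 to 4 with 1 library left out (4 without the third treated control library, when 45.9% of all genes passed). Column scaling removes a rise shared by all genes, and it reversed the log2 change with Cisplatin in depleted cells for POLH (-0.26), POLK (-0.25), POLI (-0.26), REV1 (-0.063) and USP1 (-0.32), and the difference of depleted from control cells under Cisplatin for POLH (-0.54), POLI (-0.22), REV1 (-0.29), UBE2A (-0.057) and USP1 (-0.26). Of the 5 splicing categories, no member event was called, and 1 was with a limit of 10 points or with none for Cisplatin in depleted cells (0 to 1 with 1 library left out), and 1 with no limit for depletion in treated cells. No paired analysis was possible because the splicing tables do not name their libraries. Where no construction of an alternative shows it, the cause was not tested.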
